A study of Canis lupus familiaris with 20 samples.

Results

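IL6 and CSF2 are the genes of interleukin-6 and of granulocyte-macrophage colony-stimulating factor (GM-CSF). They were 2 of the 1045 named genes on the array, and 4 of its 43603 distinct probes, 2 for each gene. Both were chosen by their co-culture over mono-culture ratios in sorted cancer cells and in sorted macrophages, so their ratios and the levels behind them are given as a description, with no test. The probes were matched through their RefSeq accessions, NM_001003301 for IL6 and NM_001003245 for CSF2.

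Canine mammary cancer lines were grown for 72 h with canine macrophages, which derived from CD64-positive monocytes sorted from the blood of healthy dogs and had received no added growth factor. The cancer cells had been stained with the CMTMR dye, and the populations were separated by flow cytometry into stained cancer cells and unstained macrophages. Each co-culture used a single cell line: P114 from an anaplastic cancer, the adenocarcinoma lines CMT-W1 and CMT-W2, CMT-U309 from a spindle-cell tumour, and CMT-U27 from a simple carcinoma. On each 2-colour array a sorted population was set against the same kind of cell grown alone, and every comparison was hybridised on a pair of arrays with exchanged dyes, which counts as 1 sample. That gave 5 samples of cancer cells, 1 for each line, and 5 samples of macrophages, 1 for each co-culture, on 20 arrays. It is not stated whether the 5 mono-cultured macrophage samples came from separate animals or cultures, so the spread between samples may in part be technical. Fewer cells of a type in a sorted tube and less RNA in each cell cannot be told apart in such bulk samples. Between 40.8% and 96.3% of probes were well above background in a channel, and the number of arrays limits the precision of every value. The labels were checked on 10 macrophage markers. In mono-culture their mean level was 14.58 to 14.79 on the log2 scale in macrophages and 6.64 to 8.80 in cancer cells. After co-culture the populations were not separated: the mean was 10.12 to 12.84 in the sorted macrophages and 9.03 to 13.99 in the sorted cancer cells. In the co-cultures with CMT-U27 (13.99 against 11.97) and CMT-W2 (11.22 against 10.44) the markers were higher in the cells labelled as cancer cells, against the labels.

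Interleukin-6 is a secreted cytokine. It binds the interleukin-6 receptor, which pairs with the shared chain gp130 and activates the JAK kinases and STAT3, and SOCS3 is induced in turn and shuts the signal off. GM-CSF acts on monocytes, macrophages and granulocytes through a receptor that activates STAT5, and supports their survival and activation. Transcription of both cytokines is induced through NF-kB and AP-1 by interleukin-1, tumour necrosis factor and Toll-like receptor ligands, and their messages are short-lived. Macrophages, fibroblasts and many carcinoma cells can make both.

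CSF2 stood higher in co-culture than in mono-culture in the cancer cells of 5 of 5 lines and in the macrophages of 5 of 5 co-cultures. Of all genes tested, 6.16% were called higher in co-culture in cancer cells and 21.2% in macrophages (limma, adjusted p under 0.05), and nothing is read from the members' count, since these ratios chose them. By the main probe (A_11_P050036, the one with the higher mean signal over all channels), the level in the co-cultured cancer cells was 9.72 in CMT-U27, 9.83 in CMT-U309, 15.02 in P114, 18.73 in CMT-W1 and 17.76 in CMT-W2, as log2 of the normalised signal. In the mono-cultured cells of the same lines it was 5.75, 7.83, 11.91, 13.16 and 12.09. The co-cultured cells of CMT-W1, CMT-W2 and P114 were thus far above those of CMT-U27 and CMT-U309, and so were their mono-cultured counterparts. In the co-cultured macrophages the level was 11.50 with CMT-U27, 10.40 with CMT-U309, 14.58 with P114, 18.72 with CMT-W1 and 15.85 with CMT-W2. In the mono-cultured macrophages on the same arrays it was 8.17, 7.42, 10.82, 12.41 and 10.68. The macrophages were high and low in the same co-cultures as the cancer cells. Across lines the ranges of the 4 groups overlapped, although each co-culture was above its own mono-culture.

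For the main CSF2 probe the log2 ratio of co-culture to mono-culture was 3.98 in CMT-U27, 1.99 in CMT-U309, 3.11 in P114, 5.57 in CMT-W1 and 5.67 in CMT-W2 in the cancer cells, with a mean of 4.06 ± 1.59 (SD, n = 5). In the macrophages it was 3.34, 2.98, 3.76, 6.31 and 5.17 in the same order, with a mean of 4.31 ± 1.39 (SD, n = 5). As folds these ran from 3.98 in the CMT-U309 cancer cells to 79.4 in the macrophages grown with CMT-W1. The smallest ratios were those of the CMT-U309 co-culture in both populations. The mean ratio of the macrophages was 0.25 above that of the cancer cells on the log2 scale. By co-culture this difference ran from −0.64 with CMT-U27 to 0.99 with CMT-U309. The ratios of both populations chose the genes, so the difference is a description only. All 20 arrays showed a ratio over 3-fold at this probe, whichever dye the co-culture carried. Every one of the 20 arrays was well above background in the co-culture channel, and none of the spots was saturated.

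By its main probe (A_11_P053561), IL6 was also higher in co-culture in all 5 samples of each population. The level in the co-cultured cancer cells was 6.33 in CMT-U27, 14.37 in CMT-U309, 11.72 in P114, 11.64 in CMT-W1 and 10.85 in CMT-W2. In the mono-cultured lines it was 4.41, 10.24, 5.65, 6.77 and 5.99. The spindle-cell line CMT-U309 held the highest IL6 level in either culture. The co-cultured CMT-U27 cells were lowest by this probe, which was above background there on 1 of 2 arrays, and those of CMT-W1 were lowest by the other probe. In the co-cultured macrophages the level was 6.25, 14.20, 10.38, 10.57 and 9.51 in the same order of co-cultures. In the mono-cultured macrophages it was 4.30, 9.37, 4.78, 4.70 and 5.13. The macrophages grown with CMT-U309 were again far above the others, and their mono-culture counterpart was the single high value among the 5. The ranges of the 4 groups overlapped across lines for this gene too.

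The log2 ratio for the main IL6 probe was 1.92 in CMT-U27, 4.13 in CMT-U309, 6.07 in P114, 4.88 in CMT-W1 and 4.86 in CMT-W2 in the cancer cells, with a mean of 4.37 ± 1.54 (SD, n = 5). In the macrophages it was 1.94, 4.83, 5.60, 5.87 and 4.38, with a mean of 4.53 ± 1.56 (SD, n = 5). The co-culture with CMT-U27 gave the smallest ratio in both populations, and its co-culture channel was above background on only 1 of 2 arrays in each. IL6 in mono-culture was often too dim to measure: this probe was well above background on 4 of 10 arrays of mono-cultured cancer cells and on 2 of 10 of mono-cultured macrophages. Where neither mono-culture array passed, the rise is a lower bound, at least 19.0-fold in the CMT-W1 cancer cells and at least 25.8-fold, 23.7-fold and 11.3-fold in the macrophages grown with P114, CMT-W1 and CMT-W2. These bounds set the co-culture level against the lowest signal well above background on the same array, or the probe's own signal where that was higher. The mean ratio of the macrophages was 0.16 above that of the cancer cells on the log2 scale. By co-culture this difference ran from −0.48 with CMT-W2 to 0.998 with CMT-W1, again a description only. With normexp background correction and an offset of 50 followed by loess, the mean log2 ratio of IL6 was 2.01 in each population. Without CMT-U27 or without CMT-W2, where the markers went against the labels, the mean ratio of IL6 was 4.98 or 4.25 in cancer cells and 5.17 or 4.56 in macrophages, and that of CSF2 was 4.08 or 3.66 and 4.55 or 4.10. Whether the ratio of either gene differed between the populations was not tested.

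**Figure D1:**
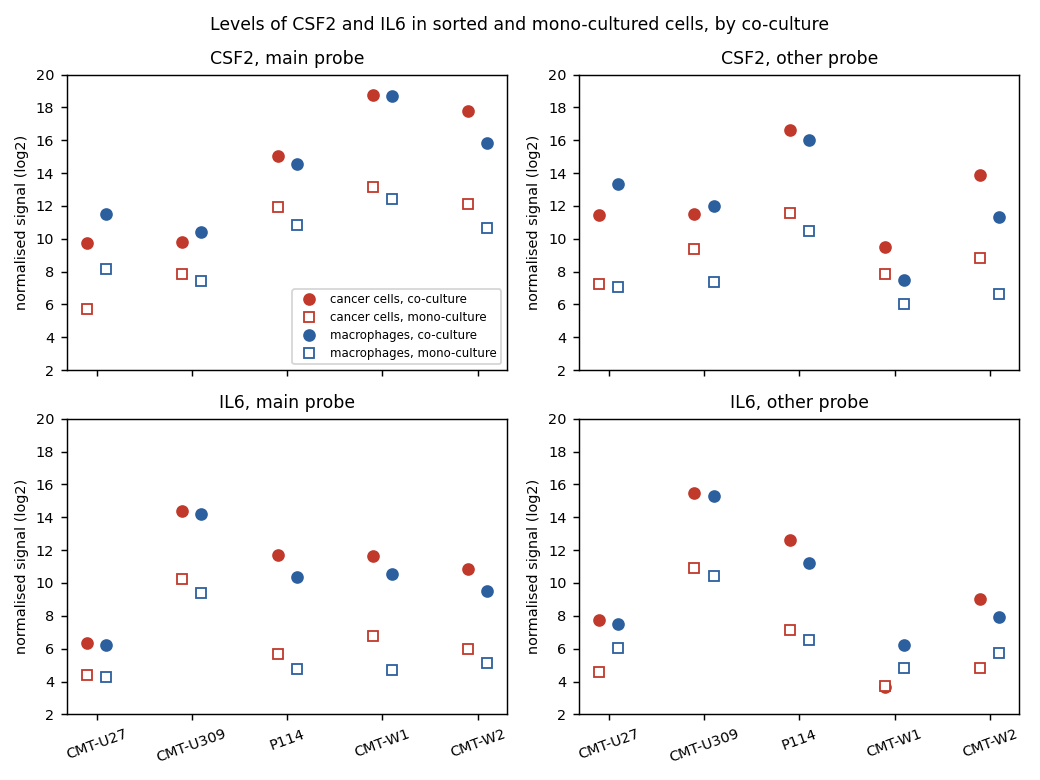
Normalised signal on the log2 scale (y axis) of both probes of CSF2 and of IL6 in each co-culture (x axis), for co-cultured cells (filled circles) and mono-cultured cells (open squares) of cancer cells (red) and macrophages (blue); each point is the mean of a dye-swap pair. By the main CSF2 probe the co-culture with CMT-W1 lay highest, near 18.7 in both populations, while by the other probe it lay lowest, at 9.52 and 7.49.

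**Figure D2:**
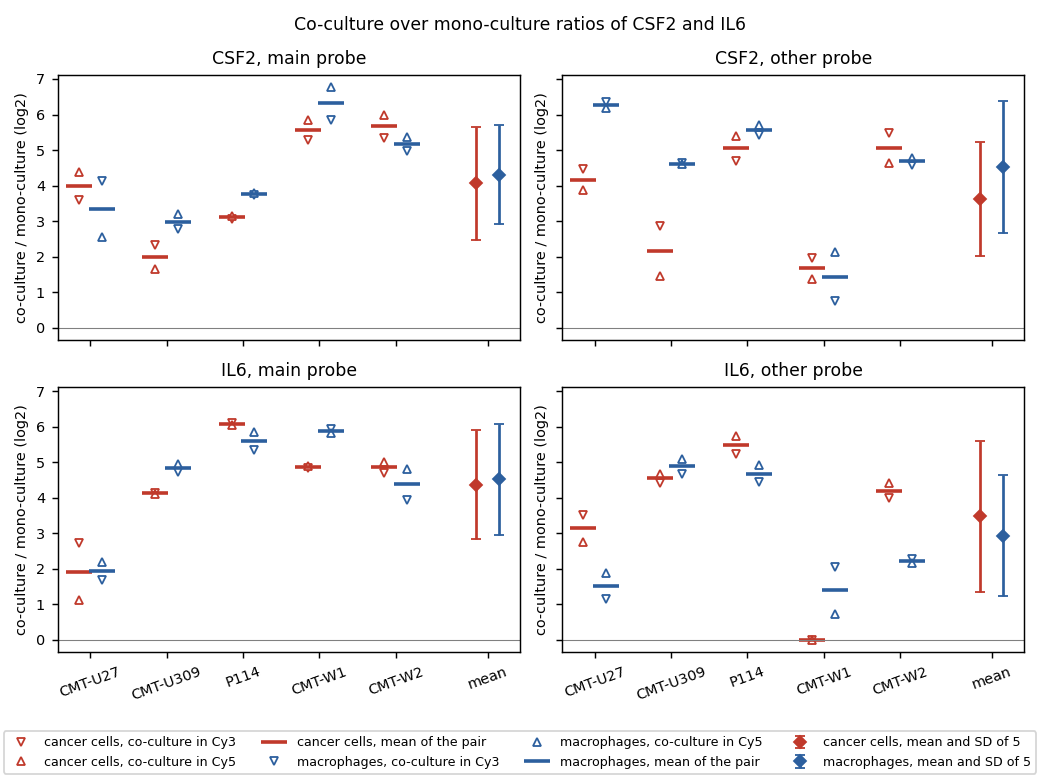
Log2 ratio of co-culture to mono-culture (y axis) for each co-culture (x axis), in cancer cells (red) and macrophages (blue); triangles are single arrays by the dye of the co-culture, bars the mean of the pair, and diamonds the mean with its SD over 5 co-cultures. All ratios lay above 0, except that of the other IL6 probe in the CMT-W1 cancer cells, which is listed at 0.

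For both members the level differed more between co-cultures than between the sorted populations of a co-culture. The median gene did so too, and a range over 5 co-cultures and a mean gap between populations are unlike measures. The mean level of both sorted populations ranged over 8.0 on the log2 scale across the 5 co-cultures for IL6 and over 8.61 for CSF2, by the main probes. Among 23020 genes measured in both populations the median range was 2.01. The levels took part in the choice of the members, so their place among all genes is not a test. The gap between the sorted populations of a single co-culture was, in contrast, close to the common one: a mean absolute gap of 0.80 for IL6 and 0.94 for CSF2, against a median of 0.69 over the same genes. By the main probe IL6 was higher in the sorted cancer cells than in the sorted macrophages of 5 of 5 co-cultures, by 0.08 to 1.34 on the log2 scale, as it also was in mono-culture, where most signals were not well above background. The smallest of these gaps was that of CMT-U27, where the probe was above background on 1 of 2 arrays of each population. By the other probe the cancer cells were higher in 4 of 5, and with CMT-W1 the macrophages were higher by 2.56. CSF2 was higher in the cancer cells of 3 of 5 by its main probe, and the gap ran from 1.91 in favour of the CMT-W2 cancer cells to 1.78 in favour of the macrophages grown with CMT-U27. By the main probes the co-cultures ranked differently for each gene, IL6 being highest with CMT-U309 and CSF2 lowest or next to lowest there. By the other CSF2 probe CMT-U309 stood in the middle, at 11.51 in cancer cells and 11.97 in macrophages.

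The levels of both genes in the mono-cultured macrophages also varied with the line that the array belonged to. They ranged over 5.07 on the log2 scale for IL6 and 4.99 for CSF2 across the 5 samples. The median range of the 23020 genes was 0.46. These levels underlie the ratios that chose the members, so this too is a description. Over all these genes the mono-cultured macrophage samples resembled each other closely, with a Pearson r between 0.976 and 0.990 for each pair of samples across genes, which are not independent replicates, against 0.574 to 0.947 for pairs of mono-cultured cancer lines. The high mono-culture values stood on arrays whose other channel was brightest. For CSF2 the mono-culture signal of the macrophages was 1.26% of the co-culture signal with CMT-W1, 2.78% with CMT-W2 and 7.39% with P114, and 9.90% and 12.7% with CMT-U27 and CMT-U309. For IL6 with CMT-U309 it was 3.51%. In general, 190 genes had a co-culture level in macrophages at least 5 log2 units above the median of the other 4 co-cultures, in 219 cases. The mono-culture level on those arrays was then a median of 1.19 log2 units above that of the other arrays, and more than 1 unit above in 53.0% of cases. What part of the mono-culture levels of IL6 and CSF2 moved with the other channel was not tested. Whether the mono-culture preparations differed cannot be told apart from this.

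The probes of a gene did not rank the co-cultures alike. For CSF2, the other probe (A_11_P0000019962) gave levels of 11.42 in CMT-U27, 11.51 in CMT-U309, 16.62 in P114, 9.52 in CMT-W1 and 13.91 in CMT-W2 in the co-cultured cancer cells. It gave 13.34, 11.97, 16.03, 7.49 and 11.30 in the co-cultured macrophages, in the same order. By this probe P114 was the highest co-culture and CMT-W1 the lowest, the reverse of its place by the main probe. The main probe minus the other was −1.70, −1.68 and −1.60 on the log2 scale in the co-cultured cancer cells of CMT-U27, CMT-U309 and P114, but 9.21 in CMT-W1 and 3.85 in CMT-W2. In the co-cultured macrophages it was −1.84, −1.57 and −1.45, and then 11.23 with CMT-W1 and 4.55 with CMT-W2. Both sorted populations of a co-culture thus shared the probe difference. It was also present in the mono-cultured cells of the same lines, at 5.31 in CMT-W1 and 3.24 in CMT-W2. The mono-cultured macrophages, grown without any cancer line, showed it too, at 6.35 on the CMT-W1 arrays and 4.07 on the CMT-W2 arrays. On the other arrays of these macrophages it was 0.07 to 1.11. What part of this moved with the other channel was not tested.

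IL6 followed the same division of lines in the sorted populations, with smaller differences. Its other probe (A_11_P0000020013) gave 7.74, 15.48, 12.64, 3.64 and 9.04 in the co-cultured cancer cells, in the order used above. In the macrophages it gave 7.53, 15.29, 11.21, 6.20 and 7.93. With CMT-U27, CMT-U309 and P114 it was the brighter probe in both sorted populations, by 0.83 to 1.41. In CMT-W2 the main probe exceeded it by 1.81 in the cancer cells and 1.58 in the macrophages. In the CMT-W1 cancer cells the other probe was not well above background on any array, in either culture, so the main probe exceeded it there by at least 4.68 on the log2 scale and its ratio is listed at 0. In the macrophages grown with CMT-W1 the difference was 4.37, with the other probe above background on 1 of 2 arrays. In mono-cultured cancer cells the difference was 3.02 in CMT-W1 and 1.15 in CMT-W2. Mono-cultured macrophages did not show the division for IL6: the difference was −0.11 and −0.58 on those arrays, below 0 as on the others. Most of these mono-culture signals were not well above background.

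Of 2454 genes with exactly 2 probes that were measured in both populations, CSF2 showed the largest range of the probe difference over the co-cultures, 11.99 on the log2 scale, where the median gene ranged over 1.33 and the 95th percentile was 4.67. IL6 ranged over at least 5.76, with levels raised to the lowest signal well above background on each array. On those levels the 95th percentile was 4.15 and CSF2 stayed the largest. The annotation used here does not say which part of the message either probe reads, and differences in transcript or in probe match were not tested. By the other probe the mean log2 ratio of CSF2 was 3.62 ± 1.61 in cancer cells and 4.52 ± 1.85 in macrophages (SD, n = 5 each), above 0 in all of them. That of IL6 was 4.34 ± 0.97 over the 4 cancer lines where this probe was above background (SD, n = 4). Over all 5 lines, with CMT-W1 listed at 0, it was 3.48 ± 2.12 (SD, n = 5). In macrophages it was 2.94 ± 1.71 (SD, n = 5), with CMT-W1 kept at 1.39. The CMT-W1 cancer cells have no direction by this IL6 probe. The probe also set the size in CMT-W1, where the log2 ratio of CSF2 was 5.57 by the main probe and 1.67 by the other in cancer cells, and 6.31 and 1.43 in macrophages. The values of CMT-W1 and CMT-W2 against the other lines therefore differ with the probe that is read.

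**Figure D3:**
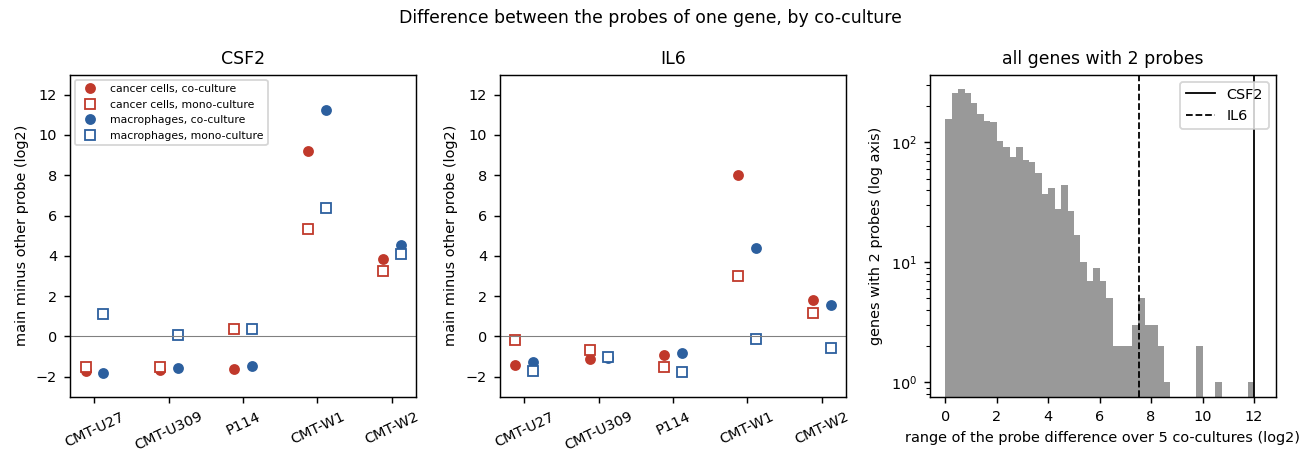
Left and middle: main probe minus other probe, in log2 units (y axis), for CSF2 and IL6 in each co-culture (x axis), with symbols and colours as in the plot of levels. Right: range of that difference over the 5 co-cultures (x axis) for 2454 genes with 2 probes (number of genes on a log y axis), with CSF2 at 11.99 and IL6 at 7.53 marked by lines. The CMT-W1 values of IL6 rest on signals of the other probe at or below background.

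Markers of macrophages changed in opposite directions in the sorted populations, while IL6 and CSF2 rose in both by the main probes. Of 18 markers, 10 were on the array and tested. In the co-cultured cancer cells 8 of the 10 rose and none fell, where 6.16% of all 24034 genes tested were called higher and 6.49% lower. CTSS, a lysosomal protease, rose by 5.92 and CD163, a scavenger receptor, by 5.89 on the log2 scale. In mono-cultured cancer cells CTSS was above background on 9 of 10 arrays and CD163 on 4 of 10, so dim signals limit the size of such rises. In the co-cultured macrophages 9 of the 10 fell and none rose, where 28.1% of 24227 genes were called lower. The mean level of the 10 markers in the co-cultured cancer cells was 13.99 in CMT-U27, 11.87 in CMT-U309, 10.16 in P114, 9.03 in CMT-W1 and 11.22 in CMT-W2, from 6.64 to 8.80 in mono-culture, and no marker was below background on every array. In these cells CMT-U27, with the highest marker level, had the lowest IL6 and CSF2 by the main probes. CMT-W1, with the lowest marker level, had the highest CSF2 by the main probe and the lowest IL6 and CSF2 by the other probes. Of the other lists, 1 of 5 lymphocyte markers rose in the cancer cells (CD28, by 2.31). CD28 was above background on 1 of 10 arrays of mono-cultured cancer cells, so the size of its rise rests on dim signals. Of the same lymphocyte markers 3 of 5 fell in the macrophages, where 28.1% of all genes fell. In cancer cells CLDN3, the 1 epithelial marker tested, fell by 1.65 over 4 lines, and PDGFRB, 1 of 3 fibroblast markers, by 1.25. In macrophages none of 2 epithelial and 2 fibroblast markers was called, and the 1 endothelial marker tested fell. Of all genes tested in macrophages, 21.2% rose and 28.1% fell. The part of cancer cell RNA in the macrophage values was not tested. The part of macrophage RNA in the cancer cell values of IL6 and CSF2 was not tested.

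**Figure D4:**
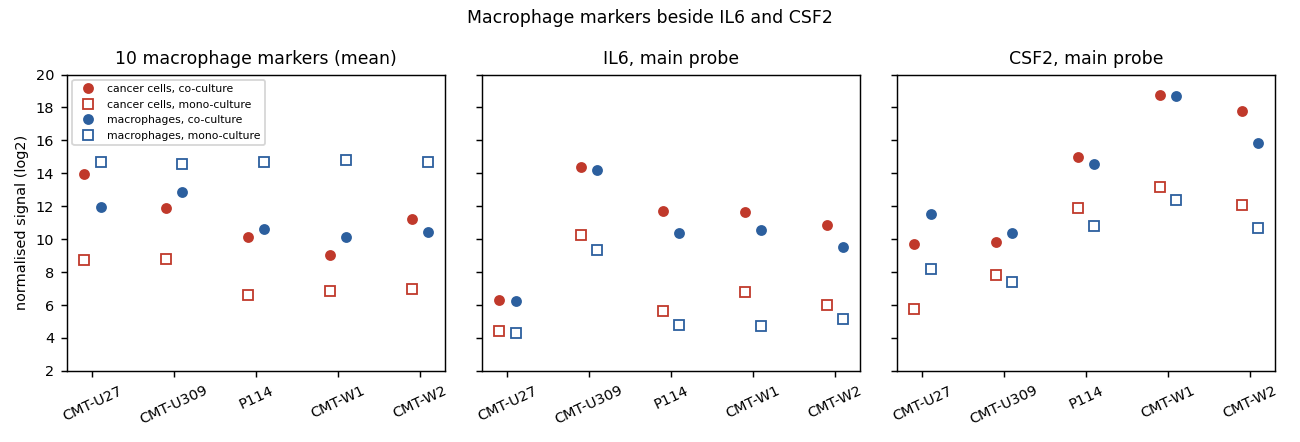
Mean level of 10 macrophage markers (left) and the levels of IL6 (middle) and CSF2 (right) by their main probes, as log2 normalised signal (y axis), in each co-culture (x axis), with symbols and colours as in the plot of levels. In the co-cultured cancer cells the markers were highest in CMT-U27, at 13.99, where IL6 was lowest by its main probe, at 6.33.

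Genes around these cytokines were taken from 8 lists of receptors, signalling genes, inducers, regulators and targets, 100 genes in all, of which 30 had a named probe, 26 were tested in cancer cells and 25 in macrophages. The receptor genes of IL6 and GM-CSF, STAT3, STAT5 and the listed regulators of mRNA decay were not analysed here. In cancer cells 8 of 26 rose and 1 fell, where 6.16% of all genes rose and 6.49% fell, with a median log2 ratio of 0.72 against −0.03 over all genes tested. In macrophages 6 of 25 rose and 8 fell, close to the 21.2% and 28.1% of all genes, with a median of −0.63 against −0.17. Leaving out the P114 co-culture brought the 14 calls in macrophages down to 8, and the calls over all genes from 11954 to 9685. Without CMT-U27 or CMT-W2, where the markers went against the labels, there were 7 calls each in cancer cells, and 11 and 10 in macrophages. Over all genes these settings called 698 and 1552 in cancer cells, against 3040, and 9529 and 9287 in macrophages. In cancer cells the calls became 1 with normexp and loess, 5 with normexp and median centring, 15 with the slide as a random block, and 0 with the unpaired test of the methods, which gave 8 an unadjusted p under 0.05.

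SOCS3, the inhibitor induced by interleukin-6 signalling, was lower in co-culture in both populations. In cancer cells it fell by 0.84 ± 0.29 on the log2 scale (SD, n = 5, lower in 5 of 5 lines, adjusted p = 0.0427 from limma), a call that was lost whichever line was left out (adjusted p from 0.0657 to 0.125). In macrophages SOCS3 fell by 1.48 ± 0.40 (lower in 5 of 5 co-cultures, adjusted p = 0.00233 from limma), and this call held without any 1 co-culture. Of the family of interleukin-6, LIF, a cytokine that also signals through gp130, rose in macrophages by 0.95 ± 0.82 (4 of 5 co-cultures, adjusted p = 0.0454 from limma). That call was lost when any co-culture but that with CMT-W2 was left out, with an adjusted p of up to 0.135. LIF had a log2 ratio of 1.01 ± 0.97 in cancer cells that did not pass (adjusted p = 0.112 from limma). With normexp the rise in macrophages was 0.26 with loess and 0.20 with median centring and did not pass. LIFR, its receptor, fell in macrophages by 1.30 ± 0.31 (5 of 5 co-cultures, adjusted p = 0.00301 from limma), and its ratio of −0.57 in cancer cells did not pass. PPARG, a nuclear receptor that GM-CSF maintains in lung macrophages, passed in neither population.

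The neighbours of CSF2 in the cytokine cluster were mostly dim. IL3, IL4 and IL13 did not pass the filter on low signal in either population. IL5, a growth factor of eosinophils, rose in macrophages by 2.13 ± 1.27 (5 of 5 co-cultures, adjusted p = 0.00741 from limma). P114 gave the highest value there, at 4.33. With normexp the ratio of IL5 was 0.49 with loess and 0.46 with median centring and did not pass, and mono-culture was above background on 3 of 10 arrays. In cancer cells IL5 had a mean log2 ratio of 2.12 ± 1.54 over 4 lines that did not pass (adjusted p = 0.0582 from limma), with 1 of the 4 listed at 0.

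Among the inducers, 3 of 10 (IL1A, TLR2 and TLR4) rose in cancer cells and fell in macrophages. Of the 10 tested in cancer cells 6 rose and none fell, with a median log2 ratio of 3.97, where 6.16% of all genes rose and 6.49% fell. Of the 10 tested in macrophages 4 fell and none rose, with a median of −1.16, where 28.1% of all genes fell and 21.2% rose. IL1A, the alpha form of interleukin-1, rose by 5.25 ± 1.65 in cancer cells (adjusted p = 0.00439 from limma) and fell by 1.89 ± 1.70 in macrophages (adjusted p = 0.03 from limma). With normexp the cancer cell call was lost, at 2.40 with loess and 2.75 with median centring, and IL1A was above background on 3 of 10 arrays of mono-cultured cancer cells. The macrophage call for IL1A was lost without P114, CMT-W1 or CMT-W2, with an adjusted p of up to 0.084. TLR4, which senses lipopolysaccharide, rose by 3.55 ± 0.62 in cancer cells and fell by 3.11 ± 1.2 in macrophages. TLR2, a lipoprotein sensor, rose by 4.64 ± 1.51 and fell by 3.77 ± 1.41, and was above background on 4 of 10 arrays of mono-cultured cancer cells. The rise of TLR2 was 2.07 and 2.43 with normexp and loess or median centring and did not pass, and that of TLR4 was 2.15 and did not pass with loess. Of the calls in cancer cells, that of CCL2 alone passed with normexp and loess. TNF passed in neither population, at 0.49 ± 0.34 in cancer cells and 0.32 ± 0.49 in macrophages (adjusted p = 0.172 and 0.319 from limma). The macrophage markers above rose in the same cancer cell samples, and the part of macrophage RNA in the rise of the inducers was not tested.

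NFKB1, which encodes a subunit of NF-kB, was called higher in both populations. It rose by 1.33 ± 0.74 in cancer cells (5 of 5 lines, adjusted p = 0.0341 from limma) and by 0.74 ± 0.50 in macrophages (5 of 5 co-cultures, adjusted p = 0.0442 from limma). Neither call held throughout: the first was lost whichever line was left out (adjusted p from 0.0555 to 0.0881), and the second by leaving out any co-culture but that with CMT-W1 (up to 0.147). FOSB, a subunit of AP-1, fell in macrophages by 0.80 ± 0.23 (adjusted p = 0.0166 from limma), a call lost without CMT-U27, CMT-U309 or P114. Its ratio of −0.16 in cancer cells, over 4 lines, did not pass.

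Of 8 target genes, 1 rose in cancer cells, and 3 rose and 1 fell in macrophages, where 6.16% of all genes rose in cancer cells, and 21.2% rose and 28.1% fell in macrophages. HAMP, the iron hormone hepcidin that interleukin-6 induces through STAT3, rose in macrophages by 2.85 ± 0.33 (5 of 5 co-cultures, adjusted p = 0.000169 from limma) and had a ratio of −0.06 ± 0.51 in cancer cells. MYC, a growth-promoting transcription factor, rose in macrophages by 4.58 ± 0.58 (5 of 5 co-cultures, adjusted p = 8.46e-05 from limma), while its ratio of −1.03 ± 0.91 in cancer cells did not pass. CCL2, a chemokine that recruits monocytes, rose in cancer cells by 4.86 ± 0.60 (5 of 5 lines, adjusted p = 0.000416 from limma), and its ratio of −1.87 ± 2.69 in macrophages did not pass. CCL17, a chemokine of type 2 responses, rose in macrophages by 1.07 ± 0.93 (4 of 5 co-cultures, adjusted p = 0.0404 from limma), a call lost by leaving out any co-culture but that with CMT-W1. PIM1, a STAT-induced kinase, fell in macrophages by 0.83 ± 0.34 (adjusted p = 0.0193 from limma), a call lost without CMT-U309, P114 or CMT-W2. MCL1, BCL2L1 and VEGFA passed in neither population.

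The difference between the populations passed for 10 of 25 pathway genes, where 31.7% of 23020 genes passed. HAMP (2.90) and MYC (5.61) had the higher ratio in macrophages, and IL1A, IL1B, IL18, TLR2, TLR4, PTGS2, CD40 and CCL2 had the higher ratio in cancer cells. All 10 calls held when any 1 co-culture was left out. With the co-culture as a block 12 genes passed, and PPARG (adjusted p = 0.0499) and MCL1 (adjusted p = 0.0277) joined them (limma). With the slide as a random block 13 passed. A single slide held both populations, from different co-cultures, and so gave no value of its own.

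**Figure D5:**
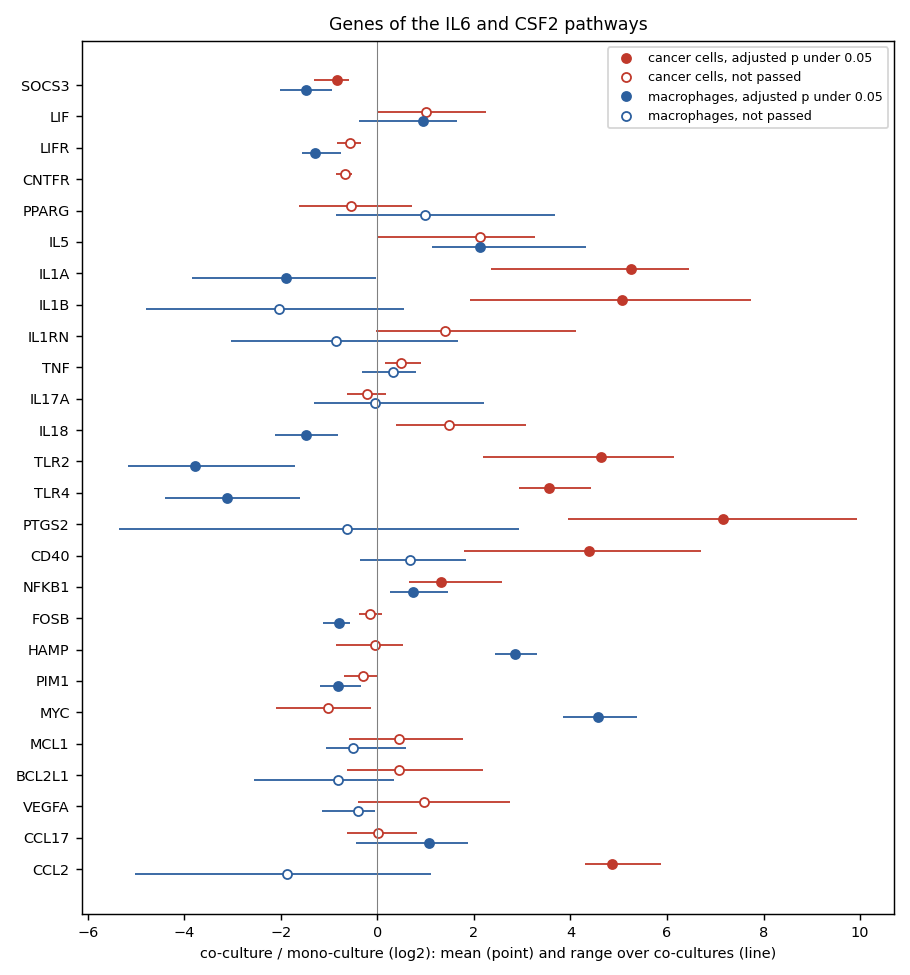
Log2 ratio of co-culture to mono-culture (x axis) of the pathway genes tested (y axis) in cancer cells (red) and macrophages (blue); points are means, filled where the adjusted p was under 0.05, and lines span the lowest to the highest co-culture. The inducers from IL1A to CD40 lie mostly to the right in cancer cells, with TLR4 at 3.55 there and at −3.11 in macrophages.

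The genes most like each member were sought among the 699 other named genes measured in both populations, by Pearson correlation of the levels over 20 points, which share lines and arrays, so that no p is given. For IL6 they were IL13RA2, a decoy receptor of interleukin-13 (r = 0.771), GJA1, the gap-junction protein connexin 43 (0.745), HSP90B1, a chaperone of the endoplasmic reticulum (0.733), IL12A, a subunit of interleukin-12 (0.720), and SLC35A1, a sialic acid transporter (0.697). IL13RA2 was the one of these whose mean log2 ratios were close to those of IL6, with 3.76 in cancer cells and 3.63 in macrophages. For CSF2 they were SRP54, of the signal recognition particle (0.848), ESRRA, a nuclear receptor (0.829), RAB2A, a small GTPase (0.816), GNB3, a G-protein subunit (0.807), and OAZ1, which restrains polyamine synthesis (0.790). Their ratios in co-culture were small, from 0.10 to 1.25 in cancer cells and from 0.39 to 1.68 in macrophages. The levels of IL6 and CSF2 themselves correlated at 0.375 by the main probes, and 91 named genes were more like IL6 than CSF2 was. All these correlations read each member by its main probe. The other CSF2 probe put the co-culture with CMT-W1 lowest instead of highest, and most IL6 signals in mono-culture were not well above background. Likeness by the other probes was not tested.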

How the data were processed

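The files are those of 20 Agilent canine arrays. Per the file headers, the authors used Agilent Feature Extraction 10.7.3.1, which subtracts background and normalises the dyes. The deposited log10 ratio of each spot was given the direction co-culture over mono-culture and converted to log2. The arrays of a dye-swap pair were averaged, leaving out outlier spots. An array held from 6 to 9870 such spots in cancer cells and from 9 to 32 in macrophages. A pair was left out for a probe where either array had only outlier spots, so some cancer cell ratios rest on fewer lines. No member spot was an outlier. Levels came from the deposited intensity values (processed signals, log2) with Aquantile normalisation between arrays. The deposited table of the series holds the same log10 ratios. Probe sequences were not used here, and no coordinates are given because the array design and the gene table name different builds.

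A gene was read by its brightest probe and tested where, in at least 3 co-cultures, that probe exceeded background clearly on the pair of arrays, in either channel's culture. Ratios were tested against 0 with limma 3.58.1 in R 4.3.3, with Benjamini-Hochberg adjustment over all genes and a threshold of 0.05. SDs are over 5 co-cultures unless a smaller number is given. The fits were tested on simulated data. Both populations of a co-culture were grown together and so are paired: their deviations from the group means correlated at 0.08 to 0.50 across genes within a co-culture and at −0.39 to 0.14 between co-cultures. Named were all probes of the members, all measured pathway genes, and the 5 genes most like each member. The members and lists were chosen with earlier results of these data known. The authors used an unpaired t-test on GeneSpring values, here an alternative, called the methods' t-test. The other alternatives were the outlier spots, normexp, each dye alone, the filter, the slide as a block, and leaving out each co-culture. Leaving out CMT-W1 and CMT-W2 together, raising levels to the lowest signal above background, and the other IL6 probe over 4 lines were added after the data were seen.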

Additional observations from a re-analysis of the deposited data

Results flagged for a closer look

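Of 72 sets of 5 values examined, 4 held a value that stood apart from the other 4 by Dixon's criterion, and chance gives about 1 in 20. The level of IL6 by its main probe in the mono-cultured macrophages was 9.37 on the CMT-U309 arrays, against 4.30 to 5.13 on the others. The log2 ratio of IL1A in the CMT-W1 cancer cells, 2.36, was low, that of LIFR in the macrophages grown with CMT-W1, −0.76, was the smallest fall, and that of IL5 in the macrophages grown with P114, 4.33, was high.

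The co-culture ratio of 10 of 25 pathway genes differed between the populations (macrophages minus cancer cells, log2, adjusted p from limma). Over all 23020 genes tested 31.7% did so. The difference was −7.14 for IL1A (0.000175), −7.11 for IL1B (0.00134), −2.96 for IL18 (0.0027), −8.41 for TLR2 (3.29e-05) and −6.66 for TLR4 (1.49e-05). It was −7.79 for PTGS2 (0.00174), −3.71 for CD40 (0.00308) and −6.72 for CCL2 (0.000614), and it was 2.90 for HAMP (8.04e-05) and 5.61 for MYC (1.49e-05). In the same samples 8 of 10 macrophage markers rose in cancer cells, where 6.16% of all genes rose. In macrophages 9 of the 10 fell, where 28.1% of all genes fell. The part of these markers' changes in the differences was not tested.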

How the results depend on the processing

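The mean log2 ratio of IL6, 4.37 in cancer cells and 4.53 in macrophages, became 2.01 and 2.01 with normexp and loess, 2.38 and 2.21 with normexp and median centring, which add 50 units to both channels, and 2.94 in macrophages with the other probe. For CSF2 no alternative moved the mean by as much as its SD, and no group's mean level of either gene moved by as much without normalisation between arrays. The pathway calls in cancer cells, 9, became 1 with normexp and loess, 5 with normexp and median centring, 15 with the slide as a random block and 0 with the methods' t-test, where 8 had an unadjusted p under 0.05. Over all genes those settings called 50, 2076, 7483 and 7, against 3040. Of all calls in cancer cells 48.7% were higher, and 86.0% and 88.6% with normexp and loess or median centring; for the difference 47.9% were, and 21.8% with median centring. That centring put the median log2 ratio of all genes at 0.17 in cancer cells and 0.01 in macrophages, against −0.03 and −0.17. In macrophages the 14 calls became 8 with normexp and median centring, and those over all genes 6561 against 11954. Leaving out 1 co-culture gave 7 to 8 calls in cancer cells, 8 to 12 in macrophages and 10 to 12 for the difference. Over all genes it gave 459 to 2348, 9024 to 12547 and 4963 to 6491. The range of the IL6 probe difference, 7.53 as measured, was 5.76 with levels raised to the lowest signal above background. Without CMT-W1 and CMT-W2 the calls were 7, 12 and 10. With the co-culture as a block, the paired analysis of the difference called 12 genes against 10. There were 1244 alternatives for single pathway genes. Of these 82 lost a call, 34 gained one and none of the called genes changed direction. Only genes called in the main fit could lose a call, so 1244 is not the base for the losses. The causes were not tested. Dim spots limit IL6 in mono-culture, where most arrays were not well above background.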
